A study of Homo sapiens with 4 samples.

Results

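The genes analysed were 10 genes of gluconeogenesis and glycogen metabolism, PCK1, PCK2, G6PC1, G6PC3, SLC37A4, FBP1, PC, PPARGC1A, GYS2 and PYGL. They were taken by symbol, after each Ensembl identifier of the expression table had been matched to GENCODE release 44, and all 10 were found among the 61906 gene identifiers in the table. Their values came from poly(A)-enriched RNA of wild-type HepG2, a long-established line from a human liver carcinoma. A mock group, which the labels list as receiving no treatment, was compared with cells given pyridostatin (PDS, 20 µM, 24 h), and either group had 2 libraries. The compound PDS is a ligand of guanine quadruplexes (G4), stacked folds that DNA or RNA rich in guanine can take, and the study asked how gene expression responded to it. The design text calls the libraries biological replicates, but no label states separate cultures. The p-values thus cover only the spread from library to library, which may be technical.

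Gluconeogenesis is the synthesis of glucose from lactate, glycerol and amino acids, and in the liver it keeps blood glucose up during fasting. Pyruvate carboxylase and phosphoenolpyruvate carboxykinase carry pyruvate back to phosphoenolpyruvate, fructose-1,6-bisphosphatase reverses a committed step of glycolysis, and glucose-6-phosphatase in the endoplasmic reticulum releases free glucose. The liver also stores glucose as glycogen, which glycogen synthase builds and glycogen phosphorylase breaks down, and both routes meet at glucose 6-phosphate.

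The libraries held between 15573166 and 39217670 reads, recovered from the deposited values, with the mock libraries deeper than the PDS libraries, and 33730 to 39833 genes had at least 1 read. Levels are given as deposited, in TPM (an abundance corrected for gene length and scaled to a fixed total in each library). Transcripts of the mitochondrial genome took 14.5% to 15.3% of the TPM in the mock libraries and 36.4% to 36.5% in the PDS libraries. Because TPM is a share of a fixed total, each library was divided for the tests by a factor taken from the median gene. On this scaled measure the median of the 14686 tested genes still lay at a log2 fold change of -0.12, against -0.55 in TPM as deposited, and log2 fold changes are read against that shift. All 10 hepatocyte markers examined reached 1 TPM in every library (summed level 48156 to 58743 TPM), while none of 6 markers of K562 cells, the other line used in the study, did. Of 5 leukocyte markers 2 reached it in each library (summed level 4.74 to 8.64 TPM), and of 3 endothelial markers 2 did in mock and 1 after PDS. None of 5 fibroblast markers or 4 kidney tubule markers did. In bulk RNA, fewer expressing cells and less RNA per cell cannot be told apart.

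Promoter sequence is shown first because PDS binds folds that guanine-rich sequence can form. RefSeq (GRCh38.p14) listed 14 promoters for 8 of the 10 genes, each running from 250 bases before to 50 bases after the annotated transcription start, and PCK1 and GYS2 had no entry. A G4 motif was defined as 4 runs of at least 3 guanines separated by 1 to 7 bases, on either strand. It occurred in 6 of the 14 promoters (42.9%), which belonged to G6PC3, SLC37A4, FBP1, PC and PYGL, and in 24.9% of all 35116 promoters of the same length. The windows of PCK2, G6PC1 and PPARGC1A held no match. The promoters of PCK2 and G6PC1 are printed because these genes had the lowest log2 fold changes, SLC37A4 because its second promoter joins a TATA box to a G4 motif, and PYGL and PC because they carry G4 motifs and did not pass the test. Letters run 5′ to 3′ on the strand of the gene, the first base after the first 250 is the start, and capitals mark matches to the G4 motif (as runs of C where it lies on the other strand) and to TATAAA.
PCK2, chr14:24094061-24094360, plus strand: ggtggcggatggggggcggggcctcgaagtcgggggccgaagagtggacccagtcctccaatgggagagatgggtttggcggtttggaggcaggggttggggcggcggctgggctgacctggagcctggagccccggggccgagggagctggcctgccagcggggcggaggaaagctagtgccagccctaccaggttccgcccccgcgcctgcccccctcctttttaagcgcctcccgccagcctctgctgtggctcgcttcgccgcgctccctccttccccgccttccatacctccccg
G6PC1, chr17:42900549-42900848, plus strand: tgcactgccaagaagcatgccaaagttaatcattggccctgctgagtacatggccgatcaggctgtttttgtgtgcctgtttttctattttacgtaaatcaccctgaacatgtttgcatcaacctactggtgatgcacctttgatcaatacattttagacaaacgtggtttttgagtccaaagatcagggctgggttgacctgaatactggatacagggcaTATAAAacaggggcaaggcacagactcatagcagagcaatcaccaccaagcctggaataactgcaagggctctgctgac
SLC37A4, second promoter, chr11:119029431-119029730, minus strand: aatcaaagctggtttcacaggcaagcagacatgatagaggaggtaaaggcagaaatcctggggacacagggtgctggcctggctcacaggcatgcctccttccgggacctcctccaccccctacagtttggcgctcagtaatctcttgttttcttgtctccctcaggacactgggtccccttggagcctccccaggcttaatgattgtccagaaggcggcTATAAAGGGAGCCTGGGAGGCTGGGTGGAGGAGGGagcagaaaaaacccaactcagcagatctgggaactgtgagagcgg
PYGL, chr14:50944434-50944733, minus strand: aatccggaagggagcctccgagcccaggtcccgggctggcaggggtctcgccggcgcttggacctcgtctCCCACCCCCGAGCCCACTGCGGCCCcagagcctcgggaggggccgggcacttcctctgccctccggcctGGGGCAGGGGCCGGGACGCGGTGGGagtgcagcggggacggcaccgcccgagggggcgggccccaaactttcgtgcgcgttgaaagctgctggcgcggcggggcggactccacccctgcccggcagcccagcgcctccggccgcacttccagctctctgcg
PC, first promoter, chr11:66958334-66958633, minus strand: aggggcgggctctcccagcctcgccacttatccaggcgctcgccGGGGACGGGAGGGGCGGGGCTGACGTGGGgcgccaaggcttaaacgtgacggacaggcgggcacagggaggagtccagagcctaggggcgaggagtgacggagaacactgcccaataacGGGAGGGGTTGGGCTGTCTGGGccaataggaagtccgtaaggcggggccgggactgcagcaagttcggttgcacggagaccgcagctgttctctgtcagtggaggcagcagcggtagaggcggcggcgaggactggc

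In G6PC1 the TATAAA match lay 29 to 24 bases before the start, and TATAAA was found in 11.5% of all promoters. In the second SLC37A4 promoter TATAAA lay 30 to 25 bases before the start, and the G4 motif followed it directly and crossed the start. PYGL held G4 motifs on both strands. The sequence TGACG, the core that CREB-family factors bind, was found in 24.6% of all promoters. It occurred 3 times in the first PC promoter, once within a G4 motif, and once in the first PPARGC1A promoter. That PPARGC1A window (chr4:24472856-24473155) lies outside the gene model used for its values (chr4:23755041-23904089). The full CREB palindrome TGACGTCA (1.85% of all promoters), the forkhead sequence TGTTTAC (3.42%) and the HNF1 consensus (0.00570%) had no match in the 14 windows on either strand. Only exact strings were searched, and variant sites would be missed. The HNF1 string occurred in only 2 of all 35116 promoters, so its absence here says nothing about HNF1 binding.

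**Figure D1:**
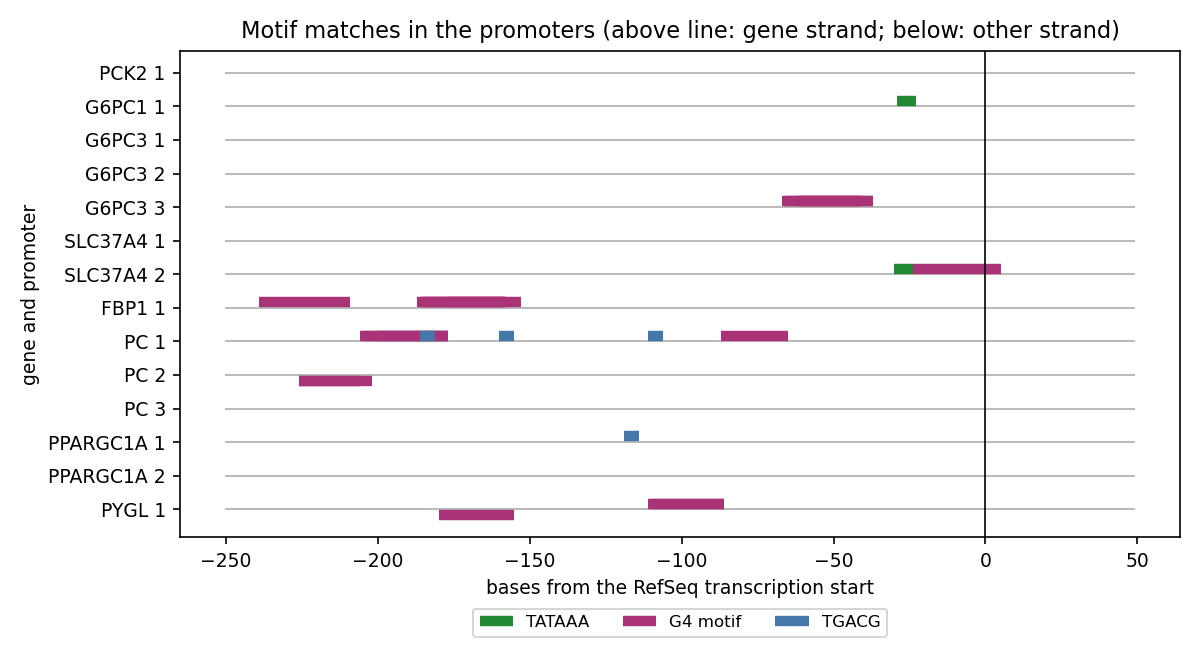
Positions of motif matches in the 14 RefSeq promoters of 8 of the genes. The horizontal axis gives bases from the annotated start (vertical line), each row is 1 promoter, and bars above or below a row are matches on the strand of the gene or on the other strand. G4 motifs lie in promoters of G6PC3, SLC37A4, FBP1, PC and PYGL.

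PCK2, G6PC1, SLC37A4 and PPARGC1A fell after PDS, while PYGL, G6PC3, PC and PCK1 did not pass the test, and FBP1 and GYS2 were under the filter of a mean of 1 TPM. Thus 4 of the 8 tested genes were called lower in limma at an adjusted p of 0.05, against 17.0% of all tested genes, and 0 were called higher, against 7.80%. At an unadjusted p under 0.05 the counts were likewise 4 lower and 0 higher, and 1 gene, PCK1, was called higher when recovered reads were fitted with precision weights, where 18.1% of all genes tested were called higher and 17.3% lower. The median log2 fold change of the 8 genes was -0.32. In TPM as deposited, both PDS libraries lay below both mock libraries for 7 of the 8 tested genes, a pattern held by 82.1% of all tested genes. In scaled TPM 4 of the 8 did, against 46.8%, and these were the 4 called genes. The count of lower calls was 7 in TPM as deposited, where 71.8% of all tested genes were called lower. It was 4 of 8 when the factors came from tested genes alone, where 13.0% of genes were called lower and 16.2% higher, and 4 of 8 after quantile normalization, with 16.4% lower and 12.5% higher. With mitochondrial transcripts left out of TPM it was 6 of 8, where 33.4% of all tested genes were called lower, and G6PC3 and PYGL were the genes added (log2 fold changes -0.22 and -0.23, limma adjusted p = 0.0451 and 0.0464).

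**Figure D2:**
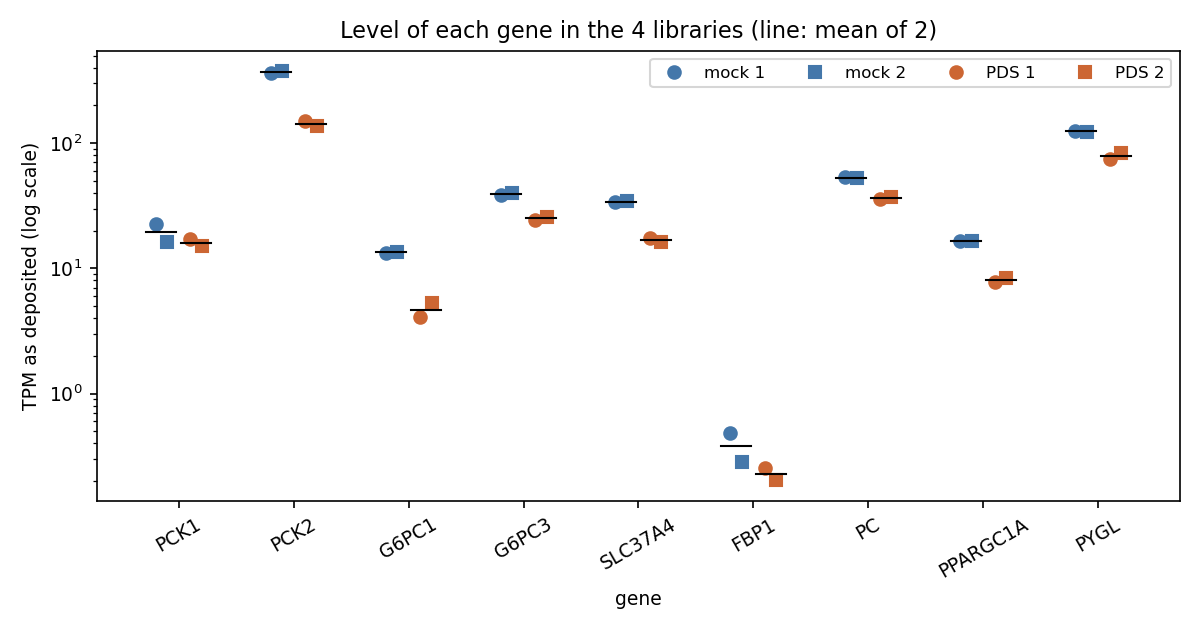
TPM as deposited of 9 genes in each library on a logarithmic axis, with 1 point per library and a line at the mean of each group. PCK2 was highest in every library, between 136 and 375 TPM, and GYS2, listed at 0, is not drawn.

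PCK2, which encodes the mitochondrial phosphoenolpyruvate carboxykinase, was the most abundant of the 10 genes (ENSG00000100889.12, chr14:24094053-24110598, plus strand). Its level was 365 and 375 TPM in the mock libraries and 150 and 136 TPM in the PDS libraries, which rested on 18227, 14340, 3870 and 4383 reads. The groups did not overlap, and the mean went from 370 ± 7.44 to 143 ± 9.68 TPM (SD, n = 2 each), which is 61.4% lower. After scaling, the log2 fold change was -0.87 (SE 0.0965, 95% interval -1.10 to -0.65, limma adjusted p = 0.00309), a 1.83-fold fall. This change was lower than that of all but 1.51% of tested genes, and its mean TPM was above that of 97.2% of them. The call was kept without each of the 4 libraries in turn.

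PCK1, the cytosolic enzyme that responds to hormones in liver, behaved differently (ENSG00000124253.11, chr20:57561080-57568121, plus strand). Its level was 22.5 and 16.4 TPM in the mock libraries and 17.1 and 15.0 TPM after PDS. The mock libraries differed from each other by more than the groups did, and the groups overlapped. The log2 fold change was 0.23 (SE 0.146, 95% interval -0.11 to 0.57, limma adjusted p = 0.281). Its sign depended on the scaling, with -0.25 in TPM as deposited, and on the mock libraries, with 0.40 without mock 1 and -0.04 without mock 2. The median of all tested genes lay at -0.55, -0.17 and -0.15 in these fits, and PCK1 was above it in each. With recovered reads and precision weights it was 0.36 (adjusted p = 0.0298 in limma).

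The ratio of both isozymes within a library needs no scaling. PCK1 made up 5.81% and 4.18% of the summed PCK1 and PCK2 level in the mock libraries and 10.3% and 9.92% in the PDS libraries. Both PDS libraries lay above both mock libraries, and PCK2 remained the larger part in all 4. The log2 ratio of PCK1 to PCK2 was -4.27 ± 0.354 in mock and -3.16 ± 0.0379 after PDS (SD, n = 2 each). The difference of 1.11 corresponds to a 2.16-fold higher ratio, and its exact permutation p, two-sided, was 0.333, the smallest that 2 against 2 libraries allow.

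Pyruvate carboxylase (PC, ENSG00000173599.15, chr11:66848417-66958386, minus strand) supplies oxaloacetate from pyruvate in mitochondria. It was at 53.4 and 52.7 TPM in mock and at 36.0 and 37.0 TPM after PDS. Once scaled, the groups overlapped and the log2 fold change was -0.04 (SE 0.106, 95% interval -0.29 to 0.21, limma adjusted p = 0.813). The sign turned with the scaling, to 0.11 with factors from tested genes alone. Of its exon bases, 8.50% are shared with LRFN4 on the opposite strand, and the strand setting of the read counting was not given in the sources used here.

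Fructose-1,6-bisphosphatase 1 (FBP1, ENSG00000165140.12, chr9:94603133-94640249, minus strand), the liver form of the enzyme, had few reads. It was at 0.481, 0.286, 0.254 and 0.203 TPM in mock 1, mock 2, PDS 1 and PDS 2, from 11, 5, 3 and 3 reads. These reads are too few to show whether the gene changed, and the filter left it out of the main test. Without a filter, where 0 of 50562 genes were called, its log2 fold change was -0.05 (SE 0.185, limma adjusted p = 0.889). Its exons share 14.8% of their bases with PCAT7 on the opposite strand. FBP2, the muscle form, was also under the filter.

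G6PC1, the catalytic subunit of glucose-6-phosphatase in liver and kidney, had the lowest log2 fold change of the 8 tested genes on the scaled measure, though PCK2 was lower after quantile normalization, in TPM as deposited and without PDS 1 (ENSG00000131482.10, chr17:42900797-42914438, plus strand). It was at 13.2 and 13.6 TPM in mock and at 4.11 and 5.25 TPM after PDS, from 690, 544, 111 and 177 reads. The groups did not overlap. The mean was 13.4 ± 0.290 TPM in mock and 4.68 ± 0.810 TPM after PDS (SD, n = 2 each), which is 65.1% lower. The log2 fold change was -0.91 (SE 0.150, 95% interval -1.26 to -0.56, limma adjusted p = 0.00828), a 1.88-fold fall on the log2(scaled TPM + 1) scale, which understates changes of low genes. Only 1.31% of tested genes had a lower value. The call was kept without each of the 4 libraries in turn.

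G6PC3, the catalytic subunit found in nearly all tissues and known for its part in neutrophil function, was at 38.5 and 39.9 TPM in mock and at 24.3 and 25.9 TPM after PDS (ENSG00000141349.10, chr17:44070620-44082151, plus strand). In scaled TPM the groups overlapped and the log2 fold change was -0.14 (SE 0.113, 95% interval -0.40 to 0.13, limma adjusted p = 0.395), close to the median gene. Its exons share 1826 bases (23.9%) with HDAC5 on the opposite strand, and HDAC5 had a log2 fold change of -0.05 (limma adjusted p = 0.786).

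Within each library G6PC1 made up 25.5% and 25.4% of the summed G6PC1 and G6PC3 level in mock and 14.4% and 16.9% after PDS. Both PDS libraries lay below both mock libraries. The log2 ratio of G6PC1 to G6PC3 was -1.55 ± 0.00534 in mock and -2.43 ± 0.188 after PDS (SD, n = 2 each). It thus fell by 0.89, a 1.85-fold lower ratio, with the same smallest exact permutation p of 0.333.

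**Figure D3:**
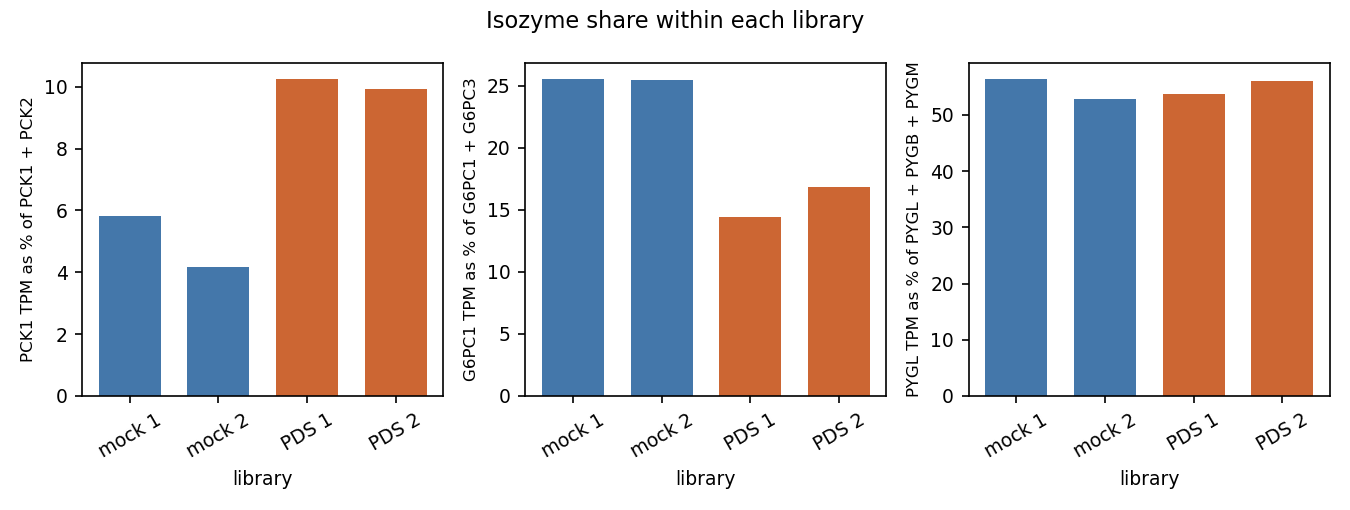
Share of PCK1 in PCK1 and PCK2, of G6PC1 in G6PC1 and G6PC3, and of PYGL in PYGL, PYGB and PYGM, in percent of summed TPM for each library. The PCK1 share is higher and the G6PC1 share lower in both PDS libraries than in both mock libraries, and the PYGL share overlaps between the groups.

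SLC37A4, the transporter that carries glucose 6-phosphate into the endoplasmic reticulum to the phosphatase, also fell (ENSG00000137700.19, chr11:119023751-119030906, minus strand). It was at 33.7 and 34.4 TPM in mock and at 17.6 and 16.2 TPM after PDS, with no overlap, and the mean was 50.4% lower. The log2 fold change was -0.49 (SE 0.0961, 95% interval -0.72 to -0.27, limma adjusted p = 0.0132), a 1.41-fold fall. The call was lost without mock 1 (limma adjusted p = 0.0608) or without mock 2 (0.0719), with log2 fold changes of -0.54 and -0.53. Its exons share 868 bases (13.3%) with TRAPPC4 on the opposite strand, which had a log2 fold change of 0.03 (limma adjusted p = 0.866).

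PPARGC1A encodes the coactivator PGC-1α, which in mouse liver raises transcription of Pck1 and G6pc on fasting (ENSG00000109819.9, chr4:23755041-23904089, minus strand). It was at 16.5 and 16.6 TPM in mock and at 7.77 and 8.39 TPM after PDS, with no overlap, and the mean was 51.2% lower. The log2 fold change was -0.49 (SE 0.115, 95% interval -0.76 to -0.22, limma adjusted p = 0.0225), a 1.41-fold fall. The call was lost without mock 1 (limma adjusted p = 0.0684) or mock 2 (0.0766), with log2 fold changes of -0.53 and -0.54. PPARGC1A had the longest summed exons of the 10 genes, 10870 bases, and once a trend on exon length was removed its log2 fold change was -0.23 (limma adjusted p = 0.0808). PCK2, G6PC1 and SLC37A4 kept their calls there, as 3 of 8 genes against 10.9% of all tested genes called lower and 12.8% called higher.

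PYGL, the liver glycogen phosphorylase, was the second most abundant gene (ENSG00000100504.17, chr14:50857891-50944483, minus strand). It was at 126 and 122 TPM in mock and at 75.0 and 82.9 TPM after PDS. In scaled TPM the groups overlapped, and the log2 fold change was -0.15 (SE 0.121, 95% interval -0.43 to 0.13, limma adjusted p = 0.385). Without PDS 2 it was -0.39, but the median of all tested genes then lay at -0.26, against -0.12 with all 4 libraries. PYGL made up 56.4% and 52.9% of the summed level of PYGL, PYGB and PYGM in mock and 53.8% and 56.1% after PDS. The shares of 54.6 ± 2.51% and 54.9 ± 1.67% (SD, n = 2 each) differed by 0.296 percentage points, less than the spread between libraries (exact permutation p = 1, two-sided). PYGB, the brain form, made up nearly all of the rest, with 97.0 and 108 TPM in mock and 64.0 and 64.6 TPM after PDS, a log2 fold change of -0.17 (limma adjusted p = 0.289). PYGM, the muscle form, was under the filter.

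GYS2, the liver glycogen synthase, was listed at 0 in all 4 libraries (ENSG00000111713.3, chr12:21536107-21604847, minus strand). A count of 0 allows up to 3 reads, or 0.0780 to 0.151 TPM by library, for counting error only. Of its 3214 exon bases, 2742 (85.3%) also belong to a gene model on the same strand, ENSG00000285854, and reads in such bases may go unassigned, which leaves 472 bases that are its own. If shared bases were left out, the 0 speaks only for those 472 bases, and the bound above, which takes the full exon length, is too low. ENSG00000285854 itself was at 0.0162 and 0 TPM in mock and at 0 and 0.0502 TPM after PDS. GYS1, the form of muscle and most other tissues, was at 76.7 and 75.3 TPM in mock and at 45.2 and 53.3 TPM after PDS, with a log2 fold change of -0.13 (limma adjusted p = 0.518).

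**Figure D4:**
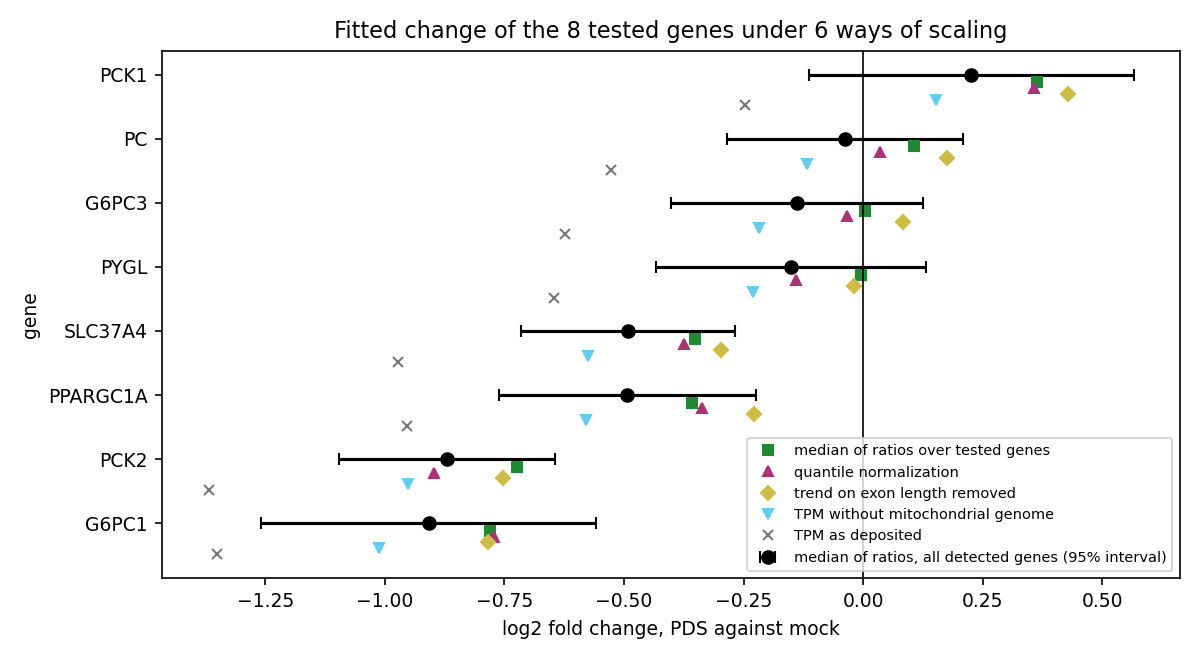
Log2 fold change of PDS against mock for the 8 tested genes, with black points and 95% intervals from limma on log2(scaled TPM + 1) and coloured or grey markers for 5 other ways of scaling. The intervals of G6PC1, PCK2, SLC37A4 and PPARGC1A lie below 0 and those of PYGL, G6PC3, PC and PCK1 cross it.

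By level in the mock libraries the order was PCK2, PYGL, PC, G6PC3, SLC37A4, PCK1, PPARGC1A, G6PC1, FBP1 and GYS2. The mean levels after PDS stood in the same order. PCK1 overlapped PPARGC1A in mock (16.4 to 22.5 against 16.5 to 16.6 TPM). After PDS it overlapped SLC37A4 (15.0 to 17.1 against 16.2 to 17.6 TPM). The other neighbours with reads did not overlap. The genes that fell thus came from both ends of the order, with PCK2 first and G6PC1 last of the 8 tested.

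The other genes of the gluconeogenic route, which include transporters, aminotransferases and the reversible glycolytic enzymes, numbered 29, of which 24 were tested, and 2 were called higher and 3 lower, near the 7.80% higher and 17.0% lower over all tested genes. Their median log2 fold change was -0.12, the same as over all tested genes. SLC2A2, the glucose transporter of hepatocytes, was at 38.1 and 38.4 TPM in mock and at 13.9 and 16.3 TPM after PDS (log2 fold change -0.81, limma adjusted p = 0.00825). GPD1, which makes dihydroxyacetone phosphate from glycerol 3-phosphate, was at 6.95 and 9.03 TPM in mock and at 3.51 and 3.02 TPM after PDS (log2 fold change -0.66, limma adjusted p = 0.0178). Neither overlapped between the groups, but the GPD1 call was lost without mock 2, where it was at -0.53. The aminotransferases split, with mitochondrial GOT2 lower (log2 fold change -0.41, limma adjusted p = 0.0365) and cytosolic GOT1 higher (0.35, adjusted p = 0.0461). Both of these calls were lost when limma was fitted without its variance trend (adjusted p = 0.0688 and 0.0797). The GOT2 call was also lost without mock 1 or mock 2, where it was at -0.52 and -0.40. Glycerol kinase, GK, was also called higher (log2 fold change 0.52, limma adjusted p = 0.0184). The rises of GOT1 and GK rest on the scaling, as GOT1 was at -0.15 and GK at 0.02 in TPM as deposited. Both calls were also lost without either mock library and without PDS 2, where GOT1 was at 0.18 and GK at 0.31 (limma adjusted p = 0.137 and 0.0519). The most abundant genes that did not pass were GAPDH (log2 fold change 0.17) and ENO1 (0.00), both below 0 in TPM as deposited.

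Among other glycogen enzymes and regulators, 24 of 30 were tested, 2 were called higher and 3 lower, near the 7.80% and 17.0% over all tested genes, and the median log2 fold change was -0.13. STBD1, which tethers glycogen to membranes, was at 5.66 and 4.62 TPM in mock and at 6.69 and 6.23 TPM after PDS (log2 fold change 0.71, limma adjusted p = 0.00927). In TPM as deposited STBD1 was at 0.29 (limma adjusted p = 0.0671), and its call was lost without mock 2, where it was at 0.54. The branching enzyme GBE1 was called higher (log2 fold change 0.46, limma adjusted p = 0.0326), but its TPM overlapped between the groups and its value was -0.03 in TPM as deposited. Its call was lost without mock 1, and without mock 2 or PDS 2 it was at 0.28 (limma adjusted p = 0.361 and 0.142). Among the lower genes were GYG2, the liver form of the glycogenin primer (log2 fold change -0.61, limma adjusted p = 0.0160), and PHKB, a regulatory subunit of phosphorylase kinase (-0.42, adjusted p = 0.0299). GYG2 lost its call without mock 2 (-0.57), and PHKB without mock 1 or mock 2 (-0.51 and -0.42). PHKB also lost it without the variance trend (limma adjusted p = 0.0584) and once a trend on exon length was removed (-0.15, limma adjusted p = 0.139). PPP1CA, a catalytic subunit of protein phosphatase 1, and PGM1, which interconverts glucose 1-phosphate and glucose 6-phosphate, did not pass (log2 fold changes 0.15 and -0.07).

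Of the upstream regulators, the transcription factors and signalling proteins that act on these genes, 33 of 36 were tested, and 13 were called lower and 3 higher, against 17.0% lower and 7.80% higher over all tested genes. Their median log2 fold change was -0.25. KLF15, a factor that in mouse liver promotes gluconeogenesis from amino acids, had the lowest value of the list. It was at 24.8 and 26.5 TPM in mock and at 6.43 and 7.96 TPM after PDS (log2 fold change -1.24, SE 0.145, limma adjusted p = 0.00348), with no overlap. PPARA, the fasting-response nuclear receptor (log2 fold change -0.69, limma adjusted p = 0.00920), FOXO1, the factor that insulin holds out of the nucleus (-0.66, adjusted p = 0.0153), and SIK3, a kinase that restrains CREB coactivators (-0.63, adjusted p = 0.0123), were lower too.

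The 3 regulators called higher were TRIB3, NR4A1 and NR0B2. TRIB3, a pseudokinase induced by stress that binds AKT, was at 200.2 and 196 TPM in mock and at 241 and 237 TPM after PDS, above mock even in TPM as deposited (log2 fold change 0.77, limma adjusted p = 0.00474). NR4A1, an immediate early nuclear receptor, overlapped between the groups in TPM (log2 fold change 0.62, limma adjusted p = 0.0367). Without PDS 2 it was at 0.26 (limma adjusted p = 0.123), and the call was also lost without mock 1 or mock 2 (0.0831 and 0.136). NR0B2, the corepressor SHP, had a log2 fold change of 0.41 (limma adjusted p = 0.0253), but -0.09 in TPM as deposited. The abundant regulators CEBPB and PRMT1 did not pass (0.18 and -0.19). The number of lower regulators depended on the correction, with 10 lower and 6 higher when the factors came from tested genes alone (13.0% and 16.2% of all tested genes) and 6 lower and 5 higher once a trend on exon length was removed (10.9% and 12.8%).

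The glycolytic counterparts were enzymes of glycolysis and regulators of glucose use, some of which restrain it. Of these 19 genes 15 were tested, 2 called higher and 1 lower, beside 7.80% and 17.0% of all tested genes. Their median log2 fold change was -0.12. HK1, a hexokinase of most tissues, was at 4.99 and 2.73 TPM in mock and at 6.16 and 6.05 TPM after PDS (log2 fold change 0.998, SE 0.204, limma adjusted p = 0.0152). PFKFB3, which makes the activator fructose 2,6-bisphosphate, was at 24.4 and 14.8 TPM in mock and at 25.1 and 23.5 TPM after PDS (log2 fold change 0.81, SE 0.198, limma adjusted p = 0.0255). For both genes the mock libraries stood well apart, and PFKFB3 overlapped between the groups. Without mock 2 HK1 was at 0.62 (limma adjusted p = 0.0489) and PFKFB3 at 0.42 (0.142), and the PFKFB3 call was also lost without either PDS library, that of HK1 without PDS 2. PKLR, the pyruvate kinase of liver and red cells, fell (log2 fold change -0.56, limma adjusted p = 0.0161), while PKM (-0.03) and HK2 (-0.28) did not pass.

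**Figure D5:**
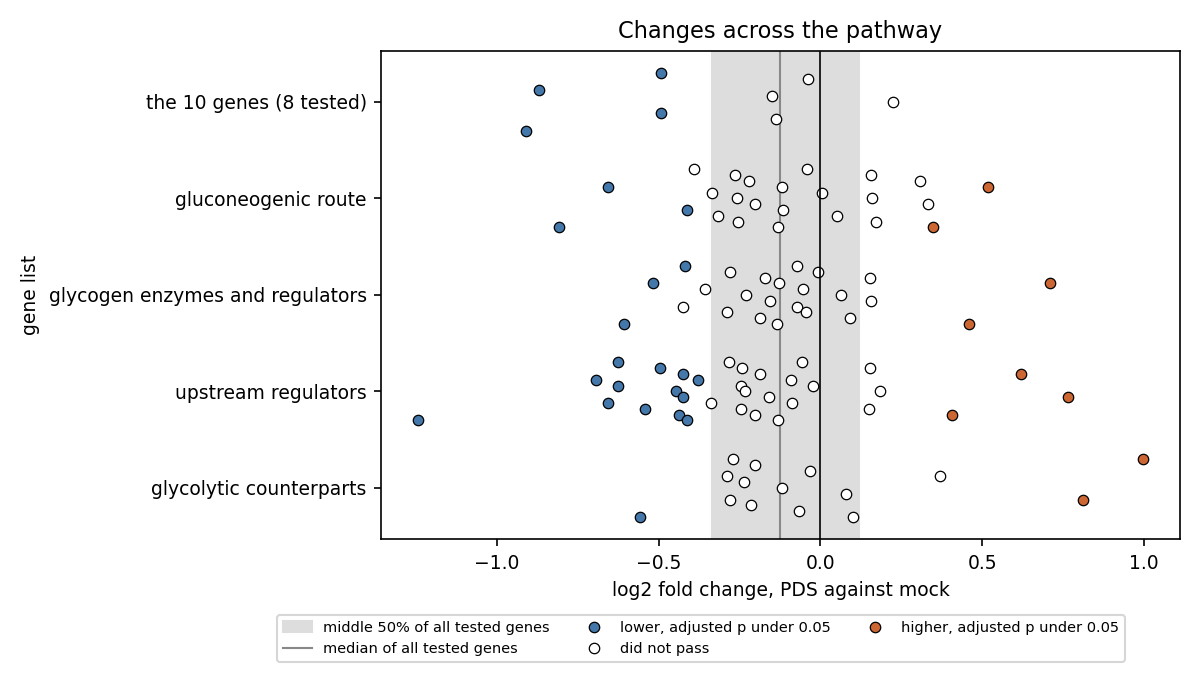
Log2 fold change of PDS against mock for the tested genes of the 10 and of 4 wider lists, 1 point per gene. Blue and orange points passed the test as lower or higher, the grey band holds the middle 50% of all tested genes, and height within a list carries no meaning. The upstream regulators hold 13 lower and 3 higher genes.

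Of the 29 genes called in the 4 lists, 15 were still called without mock 1, 5 without mock 2, and 23 without either PDS library in turn. Over all tested genes the calls went from 3646 to 1766 without mock 1, 1129 without mock 2, 3339 without PDS 1 and 4936 without PDS 2. KLF15, SLC2A2 and PPARA kept their calls without each library, as PCK2 and G6PC1 did. Every other called gene named here from the 4 lists, lower or higher, lost its call without at least 1 library.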

How the data were processed

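Poly(A) RNA-seq libraries of mock and PDS-treated HepG2 cells (2 each) were grouped by their GEO titles. The deposited values were TPM, a length-corrected expression signal. To make them, the authors used STAR (2.7.0) on GRCh38 and featureCounts (2.0.3), and DESeq2 (1.36.0) served their own comparisons. Which strand and annotation release they counted on was not given in the sources used here. Group averages made by the authors and 2 rows of column totals were left out. Reads were recovered from TPM and exon length (at least 99.89% of values up to 1000 reads within 0.05 of a whole number). TPM was divided by median-of-ratios factors over genes above 0 in every library (1.20 and 1.19 for mock, 0.887 and 0.800 for PDS). Genes averaging 1 TPM or more were tested with limma (3.58.1, R 4.3.3; eBayes with trend) on log2(scaled TPM + 1), two-sided, Benjamini-Hochberg over 14686 genes, threshold 0.05. Of these, 3646 (24.8%) were called, 1146 higher and 2500 lower. The pseudocount of 1 understates changes of low genes. Ratios were compared by exact permutation tests (SciPy 1.17.1). The scripts were tested on simulated data with equal numbers of raised and lowered genes. No rise in the mitochondrial share was simulated, so that test does not cover the scaling used here. Scaling, pseudocount, filter, variance model, replicate block and each library in turn were varied. The genes and lists were chosen with earlier results of these data known. The text names the 10 genes, their isozymes and, from each list, up to 4 called genes per direction by size and the 2 most abundant that did not pass. Some listed genes are counted but not reported here by name. Protein sequences were not analysed here.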

Additional observations from a re-analysis of the deposited data

How the results depend on the processing

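Among all genes, 3646 calls became 10917 in TPM as deposited (379 higher, 10538 lower), 6032 without mitochondrial transcripts and 0 without a filter (7600 genes at an unadjusted p under 0.05 in limma), and ranged from 1129 to 4936 with 1 library left out. Higher calls numbered 1146 and became 1829 after quantile normalization, 2377 with factors from tested genes, 1880 after the exon-length correction and 2752 with recovered reads. The last 3 of these settings were chosen after seeing the data. Of the 8 tested genes of the set, 4 were lower, 7 in TPM as deposited, 6 without mitochondrial transcripts, 0 without a filter and 2 to 5 with 1 library left out, and 1 was higher with recovered reads. With 1 library left out, the share of all tested genes called lower changed as well. The counts of lower genes among the 8 thus stand against different backgrounds and cannot be compared between those fits. Over all tested genes the median log2 fold change lay at -0.17 without mock 1 and -0.15 without mock 2. It lay at -0.10 without PDS 1 and -0.26 without PDS 2. The log2 ratios of isozymes kept their direction. The difference in PYGL share, however, ranged from -1.48 to 2.07 percentage points with 1 library left out.

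Direction turned for these log2 fold changes. In TPM as deposited it turned for CEBPB (-0.31), ENO1 (-0.50), GAPDH (-0.33), GBE1 (-0.034), GOT1 (-0.15), NR0B2 (-0.094), PCK1 (-0.25) and PPP1CA (-0.34), and without mitochondrial transcripts for ENO1 (-0.077). With factors from tested genes it turned for G6PC3 (0.0046), GYS1 (0.018), PC (0.11), PGM1 (0.073) and PKM (0.11), with recovered reads for GYS1 (0.0083), PC (0.096), PGM1 (0.062) and PKM (0.10), and after the exon-length correction for G6PC3 (0.083), PC (0.18), PGM1 (0.040) and PKM (0.20). After quantile normalization it turned for ENO1 (-0.36), GAPDH (-0.57) and PC (0.036). With 1 library left out, values ranged from -0.41 to 0.035 for GYS1, -0.22 to 0.027 for PC, -0.33 to 0.060 for PGM1, -0.24 to 0.047 for PKM, -0.25 to 0.14 for ENO1, -0.091 to 0.31 for GAPDH, -0.046 to 0.23 for PPP1CA and -0.044 to 0.40 for PCK1. For the other 30 named genes, 334 of 447 values kept direction and call, 67 lost the call, 21 gained it and 25 turned direction. The median of all tested genes moved too. It lay at -0.12 on the scaled measure, -0.55 in TPM as deposited and -9.3e-05 with factors from tested genes. The cause of the turns was not tested.

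Replicate numbers are shared between the groups, but nothing says that they pair the libraries, and over the 14686 tested genes same-numbered deviations had a correlation of -0.0153. In both groups replicate 1 had more genes with a read than replicate 2 (39833 against 35347 in mock, 37594 against 33730 in PDS). PDS 1 nevertheless had fewer recovered reads than PDS 2 (15573166 against 19647907). A shared replicate effect among genes under the filter was not tested. With the replicate number as a block, 3055 genes were called, and the same 4 of the 8 tested genes were lower. Of the 29 calls in the wider lists 23 were made with the block, and GOT1 (limma adjusted p = 0.0604), GBE1 (0.0655), NR4A1 (0.0628) and PFKFB3 (0.0547) were among those lost. The shallower PDS libraries limit G6PC1 (111 reads in PDS 1) and FBP1 most.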
